A study of Mus musculus with 10 samples.

Results

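The genes described here separate sorted CD49b+ and CD25+ T cells, together, from CD4+ T cells that were not divided by these markers. Gene expression was measured on 10 Affymetrix arrays of T cells from the spleens of DBA/1 mice, an inbred strain. CD4+ cells of naive mice, which received no injection, were on 2 arrays. CD4+ cells of mice given immature dendritic cells (antigen-presenting cells before activation) were on 2 more. The other 6 came from such injected mice too: 3 arrays of cells sorted for CD4 and CD49b and 3 of cells sorted for CD4 and CD25. Each injection placed 500000 dendritic cells in the peritoneum, on days -7, -5 and -3 relative to the harvest of the spleen. Several mice were pooled for sorting, and no label says whether replicate arrays stem from different pools. P-values therefore cover the spread among these arrays alone, part of which may be technical. Nor is it stated that the CD4+ cells were depleted of CD49b+ or CD25+ cells.

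Values are log2 expression, so that a difference of 1 is a factor of 2. A gene belongs to the shared core when its 6 sorted arrays all lie above, or all lie below, its 4 CD4+ arrays. With 1 probe set taken per gene, 6797 of 17097 genes met this rule, 1841 above (10.8%) and 4956 below (29.0%), and no test applies to the difference that the rule itself uses. The gap of a core gene is the distance between the lowest array of its higher side and the highest array of its lower side.

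CD4+ T cells that have not met antigen recirculate through lymphoid organs in a resting state, held by transcription factors such as LEF1 and KLF2. Cells that have met antigen switch on homing receptors for tissues, adhesion molecules and effector genes, and divide. CD25 is the alpha chain of the interleukin 2 receptor and marks conventional regulatory T cells, which depend on the transcription factor FOXP3. CD49b is the integrin alpha 2 chain, encoded by Itga2, and together with LAG-3 it is used to mark type 1 regulatory T cells, which act without FOXP3. Klrg1 encodes an inhibitory receptor of antigen-experienced lymphocytes, and Igfbp4 encodes a binding protein for insulin-like growth factors that resting T cells express.

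Klrg1 and Igfbp4 stood on opposite sides, as the labels of the comparison give them. Klrg1 measured 4.84 and 5.21 in naive CD4+ cells, 4.79 and 5.01 in injected CD4+ cells, 9.99, 10.07 and 9.95 in CD49b+ cells and 8.72, 8.98 and 8.55 in CD25+ cells. Igfbp4 measured 11.36 and 11.14 in naive CD4+, 11.40 and 11.32 in injected CD4+, 6.96, 7.15 and 7.28 in CD49b+ and 6.93, 7.19 and 7.42 in CD25+ cells. Neither gene overlapped between sorted and CD4+ arrays. The T cell identity genes Cd3e and Cd4 did not separate the sides. Cd3e differed by 0.07 ± 0.08 (SE, n = 6 and 4) and Cd4 by 0.11 ± 0.07, with limma adjusted p = 0.496 and 0.238. The sign for Cd4 turns when the probe sets of a gene are averaged (-0.16, limma adjusted p = 0.0412). Il2ra, which encodes CD25, measured 4.15 to 4.19 in the CD4+ arrays, 6.26, 6.37 and 6.23 in CD49b+ cells and 9.09, 8.89 and 8.51 in CD25+ cells. Itga2 did not follow its sort: it measured 5.68 to 5.85 in the CD4+ arrays, 5.59, 5.97 and 5.77 in CD49b+ cells and 5.45, 5.53 and 5.43 in CD25+ cells. CD49b+ cells therefore did not stand above the CD4+ arrays in Itga2 message. They exceeded CD25+ cells in it by 0.31 ± 0.10 (limma adjusted p = 0.0349), which is 0.152 without the third arrays of both subsets and between 0.0538 and 0.108 without any of 6 single arrays: either naive array, CD49b+ replicate 2 or 3, or CD25+ replicate 1 or 3.

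Promoter sequence is shown for Igfbp4, the core gene with the widest gap of all, and for Lgals3, the gene among the widest 3 on the higher side that the RefSeq promoter table holds. These are the 250 bases before the gene start in RefSeq's GRCm38.p6 table, plus strand, at chr11:99040994-99041243 for Igfbp4 and chr14:47373610-47373859 for Lgals3. Capitals mark GGGNGTG, a motif of Krüppel-like factors, and CACCTG, an E-box, on either strand.
Igfbp4: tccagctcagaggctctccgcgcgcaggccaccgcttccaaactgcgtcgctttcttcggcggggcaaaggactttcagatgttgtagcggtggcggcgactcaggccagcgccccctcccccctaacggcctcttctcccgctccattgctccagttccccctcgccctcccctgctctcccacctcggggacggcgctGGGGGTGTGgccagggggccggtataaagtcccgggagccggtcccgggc
Lgals3: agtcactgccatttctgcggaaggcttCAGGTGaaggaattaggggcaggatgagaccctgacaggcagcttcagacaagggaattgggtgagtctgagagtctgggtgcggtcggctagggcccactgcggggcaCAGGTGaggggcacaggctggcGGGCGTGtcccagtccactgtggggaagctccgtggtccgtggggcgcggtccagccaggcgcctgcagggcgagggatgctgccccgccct
The capital run in Igfbp4 holds 2 overlapping GGGNGTG matches. Lgals3 holds 2 CACCTG matches, both on the minus strand, and 1 GGGNGTG match. Over windows that add 50 bases after the start (300 bases), GGGNGTG was present in 35.5% of the 11424 windows of genes tested, 35.9% of those of core genes above and 35.1% of those below. CACCTG was in 18.5%, 19.0% and 20.7%, TCAAAG, read by TCF and LEF factors, in 12.4%, 11.9% and 13.9%, TGANTCA, read by AP-1, in 5.28%, 5.62% and 6.27%, and TGTTTAC, read by FOXO factors, in 2.88%, 2.39% and 3.59%. The shares in core genes lay within a few percentage points of the share in all windows for each of these motifs, as a description of letters and not of binding.

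The sorted arrays differed from the CD4+ arrays in background as well as in single genes. The median of all probe sets was 4.79 to 4.81 on the CD4+ arrays and 4.61 to 4.65 on the sorted arrays. The nonspecific control probes had medians of 3.37 to 3.41 and 3.20 to 3.31. The 3' minus 5' difference of the Gapdh probe sets, a measure of how complete the labelled RNA was, ran from -0.01 to 0.26 on CD4+ and from 0.23 to 0.69 on sorted arrays, while that of Actb ran from 0.42 to 0.56 and from 0.44 to 0.67. The part of these array-wide differences in the core was not tested. Transcripts added as labelling controls reached 8.41 and 8.23 on replicate 3 of CD49b+ and CD25+ cells, against 5.32 to 6.72 on the other 8 arrays.

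The core is best read among genes bright enough to test. A gene was tested when at least 2 arrays lay above the median of their own array, which left 11037 genes and set aside 6060 as dim. Of the 1841 core genes above, 1757 passed, and of the 4956 below, 1911 passed, which are 15.9% and 17.3% of all genes tested. The other 3045 genes below were dim, 50.2% of all dim genes, whereas 84 dim genes lay above. The median difference of sorted minus CD4+ arrays was 0.016 over genes tested and -0.181 over dim genes, so that the shared lower side consisted mostly of dim genes that sat slightly lower on every sorted array. Among core genes that passed, the median difference was 0.591 above and -0.427 below, and the median level on the higher side was 7.54 and 5.64. The lower side also held dimmer genes than the upper after the filter, and a filter passed through the bright side alone lets such genes in.

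**Figure D1:**
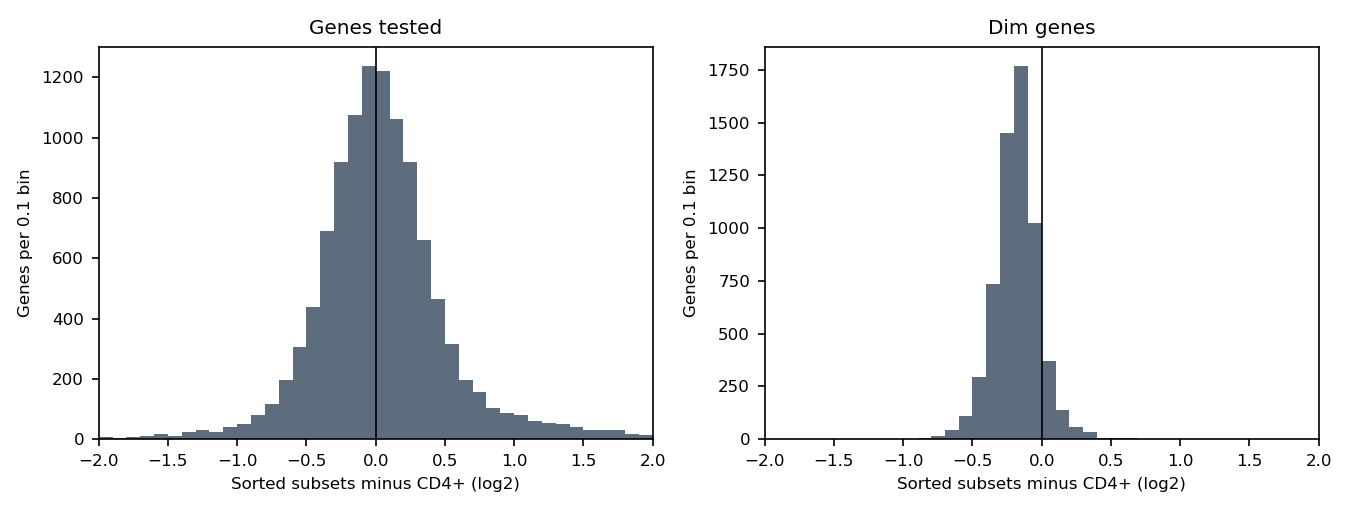
Number of genes per bin of 0.1 against the log2 difference of the 6 sorted minus the 4 CD4+ arrays, for 11037 genes tested (left) and 6060 dim genes (right). The axis stops at -2 and 2; the tested genes centre near 0 with a longer right tail, and the dim genes centre near -0.181.

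The split between the sides moved with the scaling of the arrays. Of all core genes, 27.1% lay above in the deposited values, 43.0% after quantile normalization (2163 above and 2873 below) and 41.2% after each array was centred on its median (2445 and 3487). Among genes tested the share was 47.9%, against 43.1% after quantile normalization (1556 and 2057) and 60.7% after centring (2293 and 1486). Quantile normalization kept 1326 of the 1757 tested core genes above and 1604 of the 1911 below. The 15 genes with the widest gap on each side stayed in the core after quantile normalization, centring and averaging of probe sets. A gap over 1 was found for 114 genes above and 49 below, and over 2 for 11 and 8, all among genes tested. In the limma fit of the 4 group means, the mean of both subsets was compared with CD4+ cells, and a single subset can carry such a call. At an adjusted p under 0.05, 3303 of the genes tested were higher (29.9%) and 2879 lower (26.1%) in the sorted cells. These are the background shares for members that rose or fell in the gene lists below. Without the third arrays of both subsets the counts were 3094 and 2570, and the tested core held 2004 genes above and 2091 below.

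Surface receptors led the higher side. After Klrg1, which lay 4.42 above (21.4-fold, gap 3.35), came Itgae, which encodes the CD103 integrin chain that binds E-cadherin on epithelium. Itgae measured 4.42 and 4.58 in naive and 4.19 and 4.33 in injected CD4+ cells, 8.06, 8.07 and 7.63 in CD49b+ and 8.15, 8.17 and 7.72 in CD25+ cells. The subsets differed in it by less than their spread and lay 12.0-fold over CD4+ cells (difference 3.59 ± 0.12 SE, n = 6 and 4). Cysltr1, a receptor for cysteinyl leukotrienes, lay 14.2-fold higher over both subsets, with 3.42 to 3.68 in CD4+ cells, 8.61, 8.37 and 8.96 in CD49b+ cells and 5.94, 6.09 and 6.20 in CD25+ cells. The 3 sets of arrays did not overlap. Among the interleukin 2 receptor chains, Il2ra lay 10.5-fold higher and Il2rb, the signalling chain shared with the interleukin 15 receptor, 6.03-fold higher, at 7.30 to 8.04 in CD4+ cells against 9.99 to 10.72 in the sorted cells. In CD4+ cells, Itgae, Cysltr1 and Il2ra lay under the array medians of 4.79 to 4.81, so that their folds rest on a level near background.

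Intracellular and secreted products made up most of the rest of the 15 widest genes above. Lgals3, which encodes galectin-3, a sugar-binding protein, measured 6.88 and 7.31 in naive and 6.06 and 6.56 in injected CD4+ cells, and 10.20, 10.46 and 10.46 in CD49b+ and 10.44, 10.51 and 10.33 in CD25+ cells (13-fold). The 6 sorted arrays lay closer together than the 4 CD4+ arrays and far above them. Anxa1, which encodes the phospholipid-binding annexin A1, lay 10.3-fold higher, and Socs2, a feedback inhibitor of cytokine signalling, 8.96-fold. Chsy1, a chondroitin sulfate synthase, lay 9.61-fold higher, and Serpinb1a, an inhibitor of neutrophil serine proteases, 8.66-fold. The cell-cycle kinase Nek2 lay 10.3-fold higher and Uhrf1, which maintains DNA methylation through replication, 7.41-fold. Frmd4b (11.8-fold), Nxpe4 (7.72-fold) and Niban1 (7.0-fold) complete the set.

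**Figure D2:**
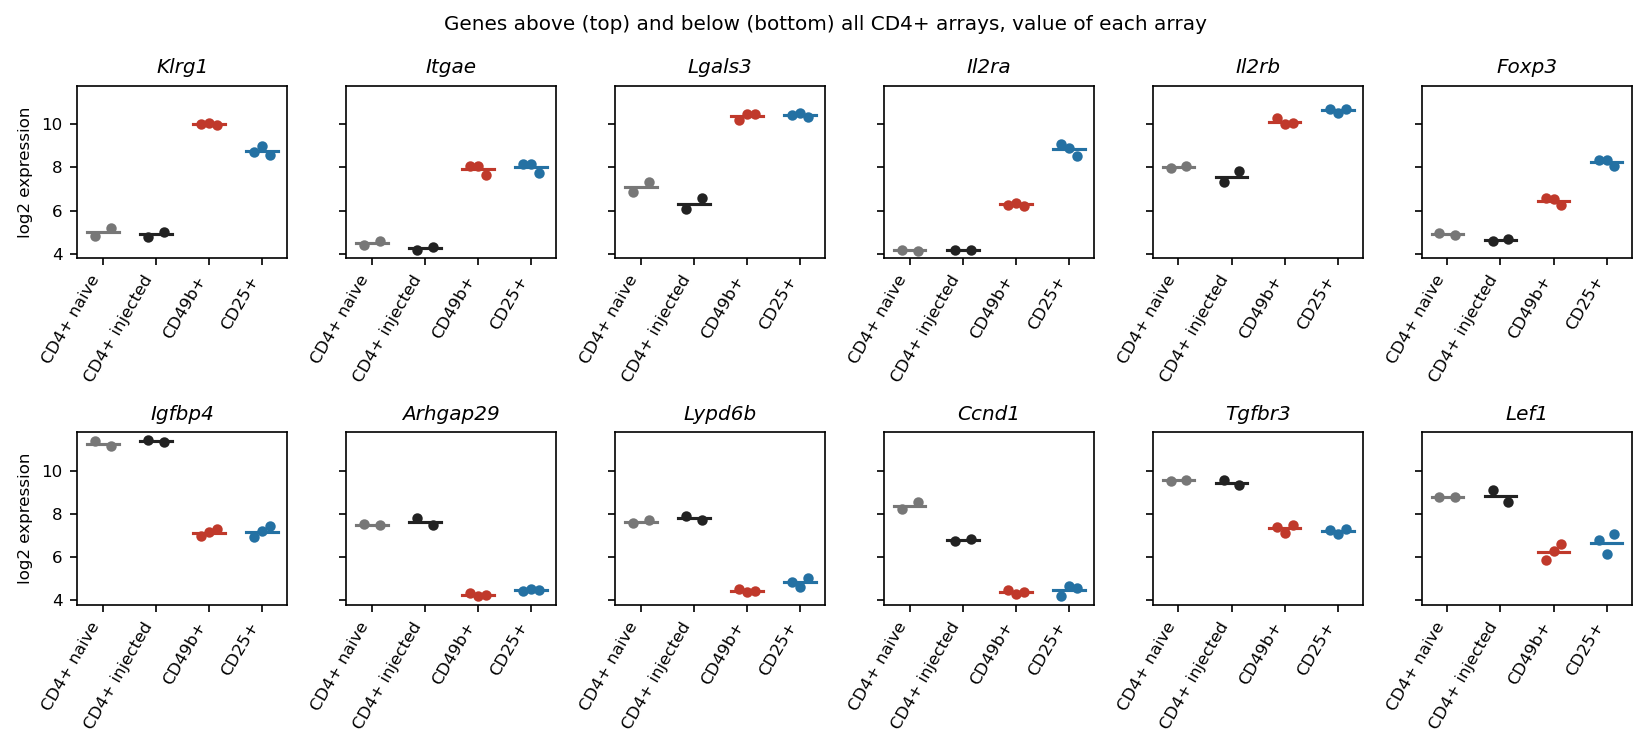
Log2 expression on each of the 10 arrays (points) with the group mean (bar) for 6 core genes above (top row) and 6 below (bottom row) the CD4+ arrays. For Itgae, Lgals3 and Igfbp4 the points of both subsets overlap, whereas Il2ra and Foxp3 are higher in CD25+ and Klrg1 in CD49b+ cells.

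The lower side was led by Igfbp4, at 17.8-fold below (difference -4.15 ± 0.10 SE, gap 3.72), and all 5 of its other probe sets fell on the same side. Arhgap29, which encodes a GTPase-activating protein, measured 7.54 and 7.47 in naive and 7.80 and 7.48 in injected CD4+ cells, and 4.35, 4.18 and 4.24 in CD49b+ and 4.44, 4.51 and 4.46 in CD25+ cells (9.24-fold lower). The sorted arrays lay close together and far from the CD4+ arrays. Lypd6b lay 8.47-fold lower, Adh1, an alcohol dehydrogenase, 6.42-fold, Snn 6.03-fold and App, the amyloid precursor protein gene, 5.90-fold. Tgfbr3, which encodes betaglycan, a coreceptor for TGF-beta, measured 9.34 to 9.56 in CD4+ cells and 7.08 to 7.49 in the sorted cells, 4.71-fold lower. Als2cl (5.74-fold), Ntrk3, a neurotrophin receptor (5.08-fold), Rflnb (4.06-fold) and Klhdc2, a substrate receptor of a ubiquitin ligase (3.93-fold), were also among the 15 widest.

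The other 4 of the 15 genes also differed between the CD4+ groups. Ccnd1, which encodes cyclin D1, measured 8.22 and 8.54 in naive CD4+ cells, 6.75 and 6.84 in injected CD4+ cells, 4.49, 4.27 and 4.38 in CD49b+ cells and 4.21, 4.64 and 4.57 in CD25+ cells. Injected CD4+ cells thus lay between the naive and the sorted cells, with no overlap of the 3. The core rule did not compare injected with naive CD4+ cells, though it used the same arrays. Injected minus naive CD4+ cells differed by -1.58 ± 0.16 for Ccnd1 and -1.60 ± 0.13 for Sash1 (limma adjusted p = 0.00228 and 0.00172, n = 2 and 2). For Mmp12, a macrophage elastase, the difference was -1.25 ± 0.12, and for Ifitm6 -1.20 ± 0.12 (limma adjusted p = 0.00228 and 0.00247). Markers of myeloid and dendritic cells were also highest in naive CD4+ cells. On the log2 scale the summed level of 16 myeloid and dendritic cell markers was 10.61 to 10.93 in naive CD4+, 9.72 to 9.93 in injected CD4+, 9.50 to 9.76 in CD49b+ and 9.45 to 9.78 in CD25+ cells, and of these Itgam, Cd14 and Lyz2 lay under the array median on all 10 arrays. Their part in these 4 genes was not tested. In bulk samples, fewer cells of a type and less RNA per cell cannot be told apart.

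Other probe sets of the same gene offer a check that the rule did not use. Of the 15 widest genes above, 9 had other probe sets, and for 6 of these every other probe set fell on the same side; for Nek2 none of 3 did. Of the 15 below, 11 had others, and for 10 every one fell on the same side, the exception being Ntrk3 with 5 of 6. For 3 of the widest genes above and 1 below, some other probe set differed in the opposite direction. Over all tested core genes, 433 of 1629 other probe sets of genes above (26.6%) and 767 of 1563 of genes below (49.1%) fell on the same side. Among other probe sets of all tested genes, 8.61% lay above and 28.1% below. Outside the core, where genes were set aside for not separating, the shares were 5.55% and 26.3%. Restricted to other probe sets that were bright enough to test, the core shares were 410 of 1110 (36.9%) and 292 of 634 (46.1%). They compare with 12.9% and 18.4% over all tested genes, and 7.82% and 17.1% outside the core. For 5 of the 15 genes above and 6 below, the lower side lay under the median of its array on all of its arrays, so that the fold rests on a level near background.

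Cell-division genes were higher in both subsets almost without exception. Of 21 mitosis genes tested, 21 rose and 0 fell, 20 of them with no overlap between arrays, and the median difference was 2.45 against 0.02 over all genes tested. The median was 3.01 in CD49b+ and 1.91 in CD25+ cells. Examples are Ube2c, which feeds the anaphase-promoting complex (3.69), the checkpoint kinase Bub1 (3.36), the spindle protein Tpx2 (3.17) and the proliferation marker Mki67 (3.15). Of 24 DNA replication genes, 24 rose and 22 belonged to the core, with a median of 1.31 (1.37 in CD49b+ and 1.10 in CD25+ cells). They included Rrm2 (2.91), a subunit of ribonucleotide reductase, the thymidine kinase Tk1 (2.49), the origin-licensing factor Cdc6 (2.49) and the GINS subunit Gins1 (2.13). Of 14 glycolysis genes 12 rose and 2 fell, with a median of 0.48 and 7 core genes above, among them the glucose transporter Slc2a3 (1.59) and Tpi1 (1.34). The kinase Pdk1, which holds pyruvate out of the citric acid cycle, lay below (-0.81), as did Pfkl (-0.60).

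Most effector and memory genes were higher in both subsets. Of 26 tested, 24 rose and 0 fell, 18 were in the core above, and the median was 1.48 (1.99 in CD49b+ and 1.03 in CD25+ cells). Of 15 annexins, S100 proteins and galectins, 13 rose and 0 fell (median 1.22), including Anxa1, S100a4 (1.80) and Anxa4 (2.11). Of 11 chemokine receptors, 9 rose and 2 fell (median 1.58). Cxcr6, a receptor of tissue-resident lymphocytes, was 3.49 higher, Ccr2, a receptor for inflammatory chemokines, 3.23 and the gut-homing receptor Ccr9 2.49. In the mean of both subsets, Gpr183 fell (-0.91 ± 0.22 SE, limma adjusted p = 0.00542). The follicle-homing receptor Cxcr5 averaged -0.47 ± 0.15 over opposite changes. It fell in CD49b+ cells (-1.91, limma adjusted p = 1.36e-05) and rose in CD25+ cells (0.97, limma adjusted p = 0.00152). Its mean was 0.44 against injected CD4+ cells alone (limma adjusted p = 0.0722).

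Of 20 transcription factors of effector T cells, 16 rose and 3 fell. The dioxin receptor Ahr lay 3.05 above, the lipid sensor Pparg 2.74, Maf 2.51, Rora 1.79 and Prdm1, which encodes BLIMP-1, 1.75. The 3 that fell were core genes too: Eomes (-0.96), Zeb2 (-0.72) and Fosl2 (-0.68, but -0.08 with adjusted p = 0.598 when its probe sets are averaged). Granule genes lay on both sides as well. Of 13, 8 rose and 3 fell, with Gzmb 3.67 and Gzma 2.8 above, both granzymes, and Prf1, which encodes perforin, the pore-forming protein of cytotoxic granules, 1.22 below at -1.22 ± 0.08 (SE). Gzmm lay at -0.37. Gzma and Gzmb therefore lay on the opposite side of the CD4+ arrays from Prf1 and Gzmm in both subsets.

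Most regulatory T cell genes were higher in both subsets. Of 25 tested, 24 rose and 1 fell, 18 lay in the core above, and the median was 1.93 (1.36 in CD49b+ and 2.10 in CD25+ cells). Foxp3 measured 4.57 to 4.96 in CD4+ cells, 6.58, 6.52 and 6.26 in CD49b+ cells and 8.36, 8.34 and 8.06 in CD25+ cells. Both subsets lay above the CD4+ arrays, and CD25+ cells lay highest. Tnfrsf9, which encodes the costimulatory receptor 4-1BB, was 1.40 higher in CD49b+ and 3.69 in CD25+ cells, Tnfrsf18, which encodes GITR, 1.16 and 1.82, and the phosphatase Dusp4 1.94 and 3.38. Gpm6b was the gene of this list that fell. Of 17 type 1 regulatory T cell genes, 11 rose and 3 fell, with a median of 1.02 (0.54 in CD49b+ and 0.89 in CD25+ cells). Ahr, Maf, Gzmb, Prdm1 and Cd226 (0.93) lay above and Eomes below, and all but Cd226 are named under other lists too. Lag3, the other surface marker of type 1 regulatory T cells, differed by -0.17 ± 0.06, a fall that was lost under 14 of the alternatives. Il21 differed by -0.96 ± 0.18, which was lost against injected CD4+ cells alone (-0.29, limma adjusted p = 0.311). Of 13 TNF receptor family and costimulatory genes 9 rose and 2 fell (9 and 0 after centring), with a median of 0.73.

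**Figure D3:**
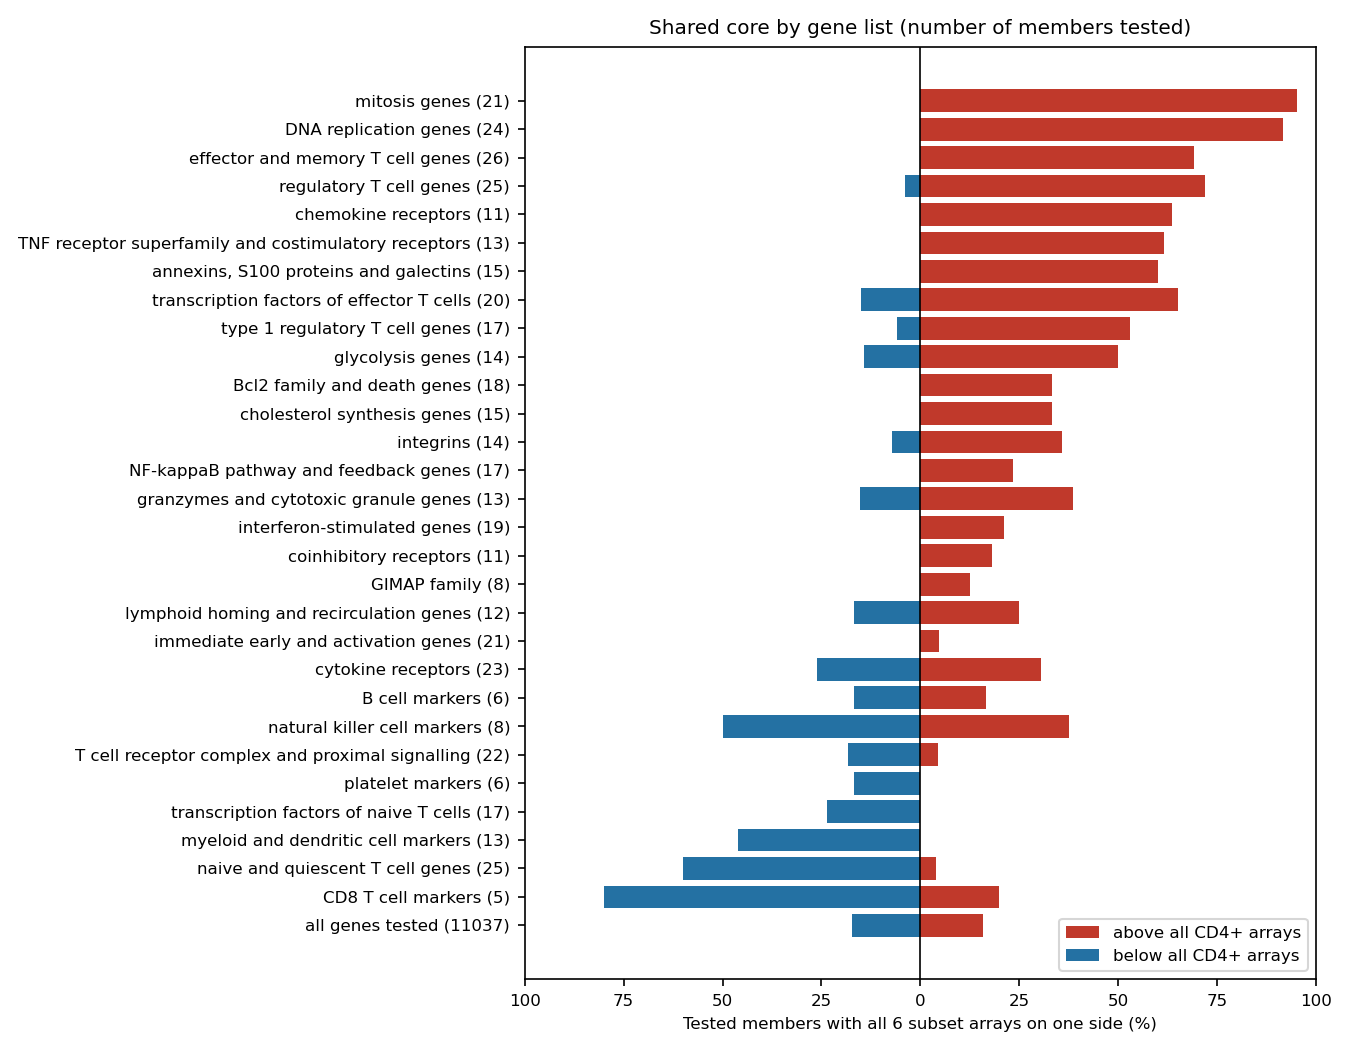
Share of the tested members of each gene list (number in brackets) whose 6 sorted arrays all lie above (right, red) or all below (left, blue) the 4 CD4+ arrays; both axes run from 0 to 100%. Mitosis and DNA replication genes reach furthest to the right, and the bottom bar gives 15.9% and 17.3% for all genes tested.

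Genes of resting T cells lay on the lower side. Of 25 naive and quiescent T cell genes, 21 fell and 1 rose, 15 were core genes below, and the median was -1.23 (-1.59 in CD49b+ and -0.61 in CD25+ cells). Lef1, a partner of beta-catenin, measured 8.53 to 9.11 in CD4+ cells, 5.86, 6.29 and 6.60 in CD49b+ and 6.80, 6.12 and 7.06 in CD25+ cells. The actin cross-linker Actn1 lay at -2.18, the complement regulator Cd55 at -1.77, the kinase Txk at -1.57 and S1pr1, the receptor with which lymphocytes leave lymphoid organs, at -1.29. Ndrg1 was the exception at 1.17. Of 17 transcription factors of naive T cells, 9 fell and 2 rose, with a median of -0.31; Foxp1 lay at -1.27, Satb1 at -0.54 and Klf2 at -0.53, and Klf2 was only just inside the core, with a gap of 0.0093. Both interleukin 6 receptor chains lay below, Il6st (the gp130 chain) at -1.55 and Il6ra at -1.23. Within the 23 cytokine receptors tested, 10 rose and 6 fell, and the core held 7 above and 6 below.

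Other lists moved little or in both directions, against a background of 29.9% higher and 26.1% lower. Of 22 T cell receptor and proximal signalling genes, 5 rose and 7 fell, with a median of -0.03 whose sign turns with the scaling (0.03 after centring). Immediate early and activation genes gave 2 up and 1 down of 21, a median of 0.08 that becomes -0.05 after quantile normalization, and 8 up and 0 down without the third arrays of both subsets. Dusp4 was the member in the core. Of 11 coinhibitory receptors 5 rose and 3 fell, of 12 lymphoid homing genes 5 and 3 (1 and 3 after quantile normalization), of 14 integrins 9 and 2 (5 and 2), of 19 interferon-stimulated genes 8 and 3, of 15 cholesterol synthesis genes 6 and 1 and of 8 GIMAP genes 2 and 2 (1 and 4). The lists of NF-kappaB genes (9 rose and 0 fell of 17; 14 and 0 without the third arrays) and of Bcl2 family and death genes (9 and 1 of 18) leaned upward, with medians of 0.48 and 0.35. The anti-apoptotic gene Bcl2 was the 1 that fell, at -1.27 in the mean of both subsets but -2.24 in CD49b+ and -0.31 in CD25+ cells (adjusted p = 0.0576 where both subsets were fitted as 1 group), and Bcl2l1, its relative, lay 0.91 above, a difference that becomes -0.05 when its probe sets are averaged.

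Markers of other cells the sort could hold were called lower more often than higher in the mean of both subsets, but their summed levels did not all follow. Of 13 myeloid and dendritic cell markers tested, 0 rose and 9 fell; 6 were core genes, with the adaptor Tyrobp at -2.42, the integrin chain Itgax at -1.56, Cd209a at -1.56 and Mpeg1 at -1.44. Of 6 B cell markers 1 rose (Cd79b, 1.12) and 4 fell (Ly86 at -2.45; 2 fell against injected CD4+ cells alone), and their summed level was 11.53 to 11.70 in naive CD4+, 10.03 to 10.32 in injected CD4+, 8.71 to 9.07 in CD49b+ and 10.77 to 11.45 in CD25+ cells, with Ms4a1, Pax5, Blnk, Ighm and Ebf1 under the array median throughout. Of 8 natural killer cell markers 3 rose and 4 fell, and of 5 CD8 T cell markers 1 rose and 4 fell; both lists share Eomes, a gene T cells express too. Summed natural killer markers were 9.64 to 9.83, 9.19 to 9.21, 9.22 to 9.72 and 8.50 to 8.74 in the same order of groups, with Klra1, Klra7, Klra8 and Klrc1 under the array median. Against injected CD4+ cells alone, the sums of B cell markers in CD25+ cells and of natural killer markers in CD49b+ cells thus lay higher. Gamma-delta T cell (0 and 2 of 4), neutrophil and basophil (0 and 1 of 2), platelet (0 and 1 of 6) and erythroid markers (0 and 1 of 2) showed few calls. Summed platelet markers were 8.01 to 8.08 in naive CD4+, 8.07 to 8.16 in injected CD4+, 8.32 to 8.53 in CD49b+ and 7.79 to 7.99 in CD25+ cells. All CD49b+ arrays thus lay above the CD4+ arrays in this sum, and all CD25+ arrays below. The part of these markers in the lower side of the core was not tested.

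The difference between the 2 subsets is a comparison that the core rule did not use. Over all genes tested, 1926 (17.5%) were higher and 1371 (12.4%) lower in CD49b+ than in CD25+ cells (limma, adjusted p under 0.05). Among the 1757 tested core genes above, 566 (32.2%) were higher and 132 (7.51%) lower in CD49b+ cells, 1059 were not called, and the median difference was 0.149. Among the 1911 core genes below, 62 (3.24%) were higher and 157 (8.22%) lower, 1692 were not called, and the median was -0.02. On the upper side the calls thus ran mostly toward CD49b+ cells, and the lower side held few calls either way. The median absolute difference between the subsets was 0.229 above, 0.083 below and 0.205 in tested genes outside the core. Whether the called shares differ from those of all genes tested was not tested, nor was the part of the rule in them. Without the third arrays of both subsets, 691 of the core genes were called in either direction, against 917. The 917 come from the fit that did not pair the subsets, and 1083 were called with the replicate number as a block.

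**Figure D4:**
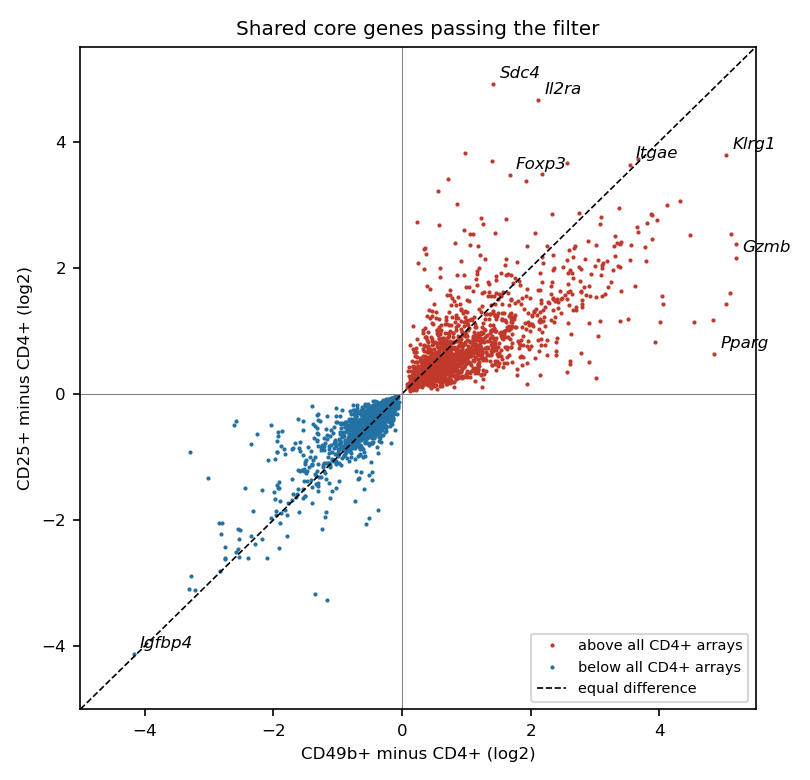
Log2 difference from CD4+ cells of CD49b+ cells (horizontal) and CD25+ cells (vertical) for the 1757 core genes above (red) and 1911 below (blue) that passed the filter; both axes use the same CD4+ arrays, and the dashed line marks equal differences. Pparg and Gzmb lie toward CD49b+, Il2ra, Sdc4 and Foxp3 toward CD25+, and Igfbp4 and Itgae on the line.

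The core genes furthest toward CD49b+ cells were Pparg, Prxl2a, Ccr2, Ltb4r1, Tmem273 and Gzmb. Pparg measured 3.96 to 4.12 in CD4+ cells, 8.84, 8.84 and 8.91 in CD49b+ cells and 4.20, 4.74 and 4.97 in CD25+ cells, and so belonged to the core with a gap of 0.08. CD49b+ cells exceeded CD25+ cells in it by 4.22 ± 0.16 (limma adjusted p = 2.97e-07). The differences were 3.68 ± 0.25 for Prxl2a, 3.61 ± 0.37 for Ccr2, 3.4 ± 0.22 for Ltb4r1, a leukotriene B4 receptor, 3.11 ± 0.16 for Tmem273 and 3.04 ± 0.19 for Gzmb (adjusted p = 6.1e-06, 7.76e-05, 4.07e-06, 1.22e-06 and 3.21e-06). Ccr2 measured 6.72, 6.70 and 8.25 in CD25+ cells, with replicate 3 standing above the other two. Together with Cysltr1 (2.57 ± 0.13, adjusted p = 1.29e-06) and Klrg1 (1.25 ± 0.13, adjusted p = 8.15e-05), these genes lay above CD4+ cells in both subsets but higher in CD49b+ cells.

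Toward CD25+ cells stood Sdc4, Penk, Ifi202b, Trgv1, Il2ra and Clnk. Sdc4, which encodes the heparan sulfate proteoglycan syndecan-4, measured 4.38 to 4.43 in CD4+ cells, 5.95, 6.09 and 5.43 in CD49b+ cells and 9.51, 9.82 and 8.60 in CD25+ cells. All 3 sets were apart, and the difference was -3.49 ± 0.28 (limma adjusted p = 1.51e-05). Penk, the proenkephalin gene, differed by -2.85 ± 0.16, Ifi202b by -2.69 ± 0.26, the gamma chain segment Trgv1 by -2.66 ± 0.12, Il2ra by -2.54 ± 0.13 and Clnk by -2.49 ± 0.24 (adjusted p = 2.03e-06, 6.04e-05, 6.32e-07, 1.12e-06 and 5.72e-05). Clnk entered the core by a gap of 0.01. Foxp3 differed by -1.80 ± 0.11 (adjusted p = 2.97e-06) and Serpinb1a by -1.10 ± 0.17 (adjusted p = 0.00108).

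Gene groups of the core above were read against the 32.2% higher and 7.51% lower in CD49b+ cells among all tested core genes above. For the group below, the shares were 3.24% higher and 8.22% lower among all tested core genes below. Whether a list differs from these shares was not tested. Of 18 regulatory T cell genes in the core above, 9 were higher in CD25+ and 2 in CD49b+ cells. Of 18 effector and memory genes, 13 were higher in CD49b+ and 2 in CD25+ cells, of 9 annexins, S100 proteins and galectins 8 and 0, and of 7 chemokine receptors 6 and 1. Of 15 naive and quiescent genes below, 9 were lower in CD49b+ cells and 2 higher (0 without CD49b+ replicate 3), with Il6st at -2.12 and Actn1 at -1.67 (adjusted p = 6.72e-06 and 1.86e-06). Mitosis genes were called toward CD49b+ cells for 16 of 20, with a median difference of 1.07, and none was called the other way. That count rested on single arrays: it was 5 without CD49b+ replicate 3, 7 without CD49b+ replicate 2 and 8 without CD25+ replicate 1, and 12 to 20 without any other array. DNA replication genes were called for 4 of 22 (median 0.21), a smaller share than among all tested core genes above. Their count was 2 without CD49b+ replicate 3 and 7 without CD25+ replicate 3. With the replicate number as a block, the counts were 20 of 20 mitosis and 9 of 22 replication genes. The block called 659 of the 1757 tested core genes above higher and 153 lower in CD49b+ cells. Replication genes then no longer lay under the share of all tested core genes above. None of 7 glycolysis genes in the core above was called (1 with the block).

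Some core genes showed no called difference between the subsets, and the examples here include 4 from the widest gaps. Igfbp4 differed between them by -0.05 ± 0.13, Lgals3 by -0.06 ± 0.15, Itgae by -0.09 ± 0.15, Niban1 by -0.12 ± 0.14 and Prf1 by less than its error (limma adjusted p = 0.836, 0.825, 0.695, 0.594 and 0.981). Prdm1 and Rora differed by -0.03 and -0.07 (adjusted p = 0.841 and 0.754). These differences lay within the spread of the arrays, which does not show that the levels are equal. Nxpe4, Socs2 and Uhrf1, also among the widest genes above, were not called either in the fit without the block. With the replicate block they were called higher in CD49b+ cells, by 0.29, 0.43 and 0.39 (limma adjusted p = 0.0298, 0.0274 and 0.00998).

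**Figure D5:**
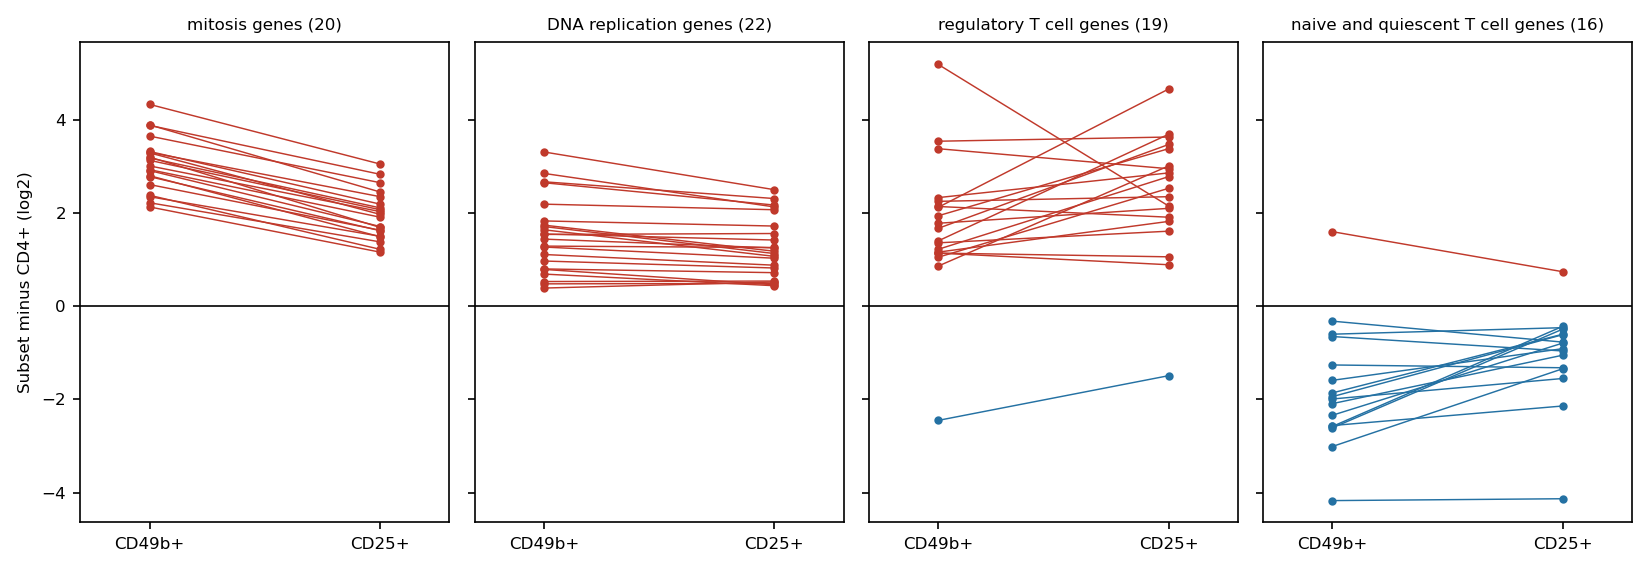
Log2 difference from CD4+ cells in CD49b+ (left) and CD25+ (right) cells for the tested core members of 4 gene lists; each line is 1 gene, red above and blue below the CD4+ arrays. Mitosis lines slope down from CD49b+ to CD25+, replication lines are flatter, and regulatory T cell lines mostly rise toward CD25+.

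Few core genes were called between injected and naive CD4+ cells, with 2 arrays in each group. So few arrays do not show that the other genes kept their level. Over all genes tested, 3 (0.0272%) rose and 150 (1.36%) fell in injected against naive CD4+ cells, 1.39% in all. Of tested genes outside the core, 1.03% were called. Among core genes above, 0 rose and 37 fell (2.11%), and among those below, 0 rose and 40 fell (2.09%), with median differences of -0.087 and 0.028. The 77 calls became 12 without naive replicate 2 and 20 without injected replicate 1. Core genes that fell furthest were Sostdc1 (-2.07 ± 0.24), H2-Q1 (-2.03 ± 0.19), Gpm6b (-2.03 ± 0.13) and Sash1 (limma adjusted p = 0.00453, 0.00228 and 0.000479 for the first 3). H2-Q1 measured 6.60 and 7.0 in naive CD4+, 4.49 and 5.06 in injected CD4+, 3.32, 3.14 and 3.37 in CD49b+ and 3.72, 3.69 and 3.50 in CD25+ cells, the same order of groups as Ccnd1. Against CD4+ cells of injected mice alone, 2557 of the 11037 genes tested lay above both of their arrays in all sorted arrays, and 2351 below. These counts exceed the 1757 and 1911 against all 4 CD4+ arrays, since only 2 CD4+ arrays had to be separated.

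At the edge of the rule, Rsf1 was the last gene inside on the lower side and Cilp2 the nearest outside, and 4930556N13Rik, a dim gene, and Pam16 were their counterparts on the upper side. All 4 had gaps that round to 0.00.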

How the data were processed

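CD4+ T cells were purified from pooled DBA/1 spleens and sorted by flow cytometry, and 100 ng of RNA was labelled and hybridised, per the labels' protocols. The deposited values are log2 expression values made by the authors. The submitters' processing notes name Affymetrix Expression Console 1.2.1 and GCRMA. GCRMA subtracts a modelled background and normalizes arrays, which sets the level of dim genes; no source used here states whether all 10 arrays were processed at once. Of 45037 probe sets that were not controls, 28898 had a single gene symbol, 551 several and 15588 none here. A gene took its probe set with the highest mean, since 7180 of 17097 had more than 1.

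One limma fit (limma 3.58.1, R 4.3.3) of the 4 groups (6 residual degrees of freedom) gave differences, standard errors and two-sided p-values, adjusted by Benjamini-Hochberg over 11037 genes and called under 0.05. The subsets' mean was the mean of both subset means, and the CD4+ mean that of both CD4+ means. Of 502 symbols in 32 gene lists, 440 were on the arrays by name and 395 passed the filter. Named genes were the sort markers, the 15 widest gaps per side, up to 4 core members of each list and up to 3 members called against its majority, the 6 largest differences each way between subsets and up to 4 each way between CD4+ groups. Members and lists were chosen with earlier results of these data known. Replicate numbers come from the labels. Between CD49b+ and CD25+ arrays, deviations from the group means correlated at 0.158, 0.366 and 0.641 for numbers 1, 2 and 3. Pairs of unlike number ran from -0.5 to 0.135. Replicate numbers were therefore taken to pair the subsets in the replicate block, whereas the main fit left the pairing out. Injected CD4+ arrays correlated with same-numbered CD49b+ arrays at 0.088 and 0.522 for numbers 1 and 2, and with CD25+ arrays at 0.245 and 0.531. Injected replicate 1 also correlated with the third CD49b+ and CD25+ arrays, at 0.446 and 0.308. For naive arrays, same-numbered pairs ran from -0.209 to 0.077. Alternatives were other filters, scalings, probe set rules, comparators, spread estimates, a 2-fold threshold, a replicate block and each array left out; the number of arrays limits the precision. Figures were drawn with matplotlib 3.10.9 in Python 3.11.15.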

Additional observations from a re-analysis of the deposited data

Results flagged for a closer look

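Both sorted subsets left CD4+ cells in the same direction for every core gene by construction, yet differed from each other for many. Among core genes above, 566 were called higher and 132 lower in CD49b+ than in CD25+ cells, and among core genes below, 62 and 157 (limma, adjusted over all genes tested). The largest differences toward CD49b+ cells were 4.22 for Pparg, 3.68 for Prxl2a, 3.61 for Ccr2, 3.4 for Ltb4r1, 3.11 for Tmem273 and 3.04 for Gzmb. Toward CD25+ cells they were -3.49 for Sdc4, -2.85 for Penk, -2.69 for Ifi202b, -2.66 for Trgv1, -2.54 for Il2ra and -2.49 for Clnk.

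Transcripts added as labelling controls, which no comparison used, averaged 8.41 on CD49b+ replicate 3 and 8.23 on CD25+ replicate 3, against 5.32 to 6.72 on the other 8 arrays.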

How the results depend on the processing

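The number of genes called lower was 6804 without the filter on dim genes and 1268 with a filter at the 70th percentile, against 2879. Testing for more than a 2-fold change left 259 higher and 83 lower. Core genes below were 2873 after quantile normalization, against 4956. Core calls between the CD4+ groups were 128 with array weights, 147 with the replicate block and 150 with the crossed replicate block, which was added after seeing the data, against 77. Across all groups, deviations of same-numbered arrays correlated at -0.21 to 0.64, and the block gave 3499 higher and 2843 lower. Between the subsets, where numbers were taken to pair, it called 1083 core genes against 917. Among subset differences given for a single gene, it changed only those of Nxpe4, Socs2 and Uhrf1, which gained the call.

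With each array left out, 2615 to 3307 genes were called higher and 2330 to 2931 lower; core genes called between subsets ran from 687 to 888, between CD4+ groups from 12 to 80. The core held 1879 to 2325 above and 5148 to 5541 below, and among genes tested 1791 to 2217 and 1969 to 2129, since fewer arrays must be separated. A group reduced to 1 array took its spread from the other groups.

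Of 9771 recomputed values of named genes, 9412 kept direction and side of the threshold, 275 lost the call, 80 gained it and 4 reversed: Cd5 to -0.02 (quantile), Bcl2l1 to -0.05 and Cd4 to -0.16 (mean of probe sets), and Cxcr5 to 0.44 (injected CD4+ only). For these the cause was not tested.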
